A study of Mus musculus with 10 samples.

Results

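Cholesterol synthesis enzymes were followed across the liver lobule and across 4 times of day in single mouse hepatocytes. The 9 genes are Hmgcs1, Pmvk, Idi1, Fdps, Fdft1, Sqle, Lss, Cyp51 and Dhcr7, chosen by name and written in the count tables in lower case (hmgcs1, pmvk, idi1, fdps, fdft1, sqle, lss, cyp51 and dhcr7). All 9 were found among 14812 gene entries. All 9 passed the filter on low counts, 3 CPM or more on average (CPM are UMIs scaled to the same total in every library; a UMI is 1 tagged RNA molecule). The libraries came from 3-month-old male C57BL/6 mice on regular chow, freely fed and anaesthetised with ketamine and xylazine, with no genotype or treatment that differed between groups. Hepatocytes, the main cells of the liver parenchyma, were isolated with collagenase and purified on Percoll before they were made into libraries with the 10x 3' kit, which reads the 3' end of transcripts. Zeitgeber time (ZT) counts hours of the light-dark cycle, with ZT0 at lights on by convention. There were 3 libraries at ZT0 and at ZT12 (A, B and C) and 2 at ZT6 and at ZT18 (A and B). How many mice contributed to a library is not in the labels, so p-values measure the spread between libraries, which may in part be technical.

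Cells make cholesterol from acetyl-CoA. The early enzymes build mevalonate and turn it into isoprene units, the middle enzymes join these into farnesyl units and squalene, and the late enzymes close and trim the sterol ring. When sterols in the endoplasmic reticulum are low, INSIG proteins let go of SCAP, which escorts SREBP-2 out to be activated, and SREBP-2 switches on most of these genes. The liver is a main site of the pathway and also takes up and excretes cholesterol.

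The counts cover 18378 cells and 1454623 to 7144803 UMIs per library, of which 1197 to 10277 came from the 9 members. Hepatocyte markers (Alb, Apoa1, Ttr, Serpina1c and Cyp3a11) summed to 36598 to 67579 CPM. Marker sums of endothelial cells, macrophages, lymphocytes, neutrophils and stellate cells were at most 15.0 CPM in any library, and Clec4g, Clec4f, Cd3e, Cd79a and Nkg7 had no UMI. The sum of 4 cholangiocyte markers was 17.4 to 32.5 CPM at ZT0, 0.773 to 4.27 at ZT6, 3.44 to 6.53 at ZT12 and 11.6 to 17.3 at ZT18. ZT18B stood apart in haemoglobin RNA, with 293.2 CPM over 4 genes against 0.338 to 8.80 CPM in the other 9 libraries. Of 4 further erythroid (red cell) markers 1 was found, and it was lowest in ZT18B, at 67.4 CPM, and highest in ZT12C, at 106.9 CPM. The mean share of mitochondrial UMIs was 12.9% to 24.4%. Whether any of these values had a part in the results was not tested. The ZT18 libraries also carry a sample index from column 4 of the index plate, which no other library has. ZT18 and that index column cannot be told apart.

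Promoter windows were available for 6 of the 9 members (250 bases before to 50 after a RefSeq start, build GRCm38.p6), and 3 are shown because they cover an early, a ring-closing and a ring-trimming enzyme. Only the stretch upstream of the gene's annotated start is printed, 5' to 3' on the gene's strand. Capitals mark matches on either strand to the SREBP element consensus TCACNCCAC (9 letters), the NF-Y box CCAAT (5 letters) and the Sp1 box GGGCGG (6 letters). The first lies at chr13:119690101-119690350 on the plus strand, the second at chr10:76531355-76531587 on the plus strand and the third at chr5:4104747-4104947 on the minus strand.
Hmgcs1: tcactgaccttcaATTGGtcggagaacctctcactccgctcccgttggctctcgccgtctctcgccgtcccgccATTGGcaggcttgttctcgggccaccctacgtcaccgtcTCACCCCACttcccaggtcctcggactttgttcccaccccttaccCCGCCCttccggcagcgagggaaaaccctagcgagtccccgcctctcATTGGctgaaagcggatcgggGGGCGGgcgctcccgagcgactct
Lss: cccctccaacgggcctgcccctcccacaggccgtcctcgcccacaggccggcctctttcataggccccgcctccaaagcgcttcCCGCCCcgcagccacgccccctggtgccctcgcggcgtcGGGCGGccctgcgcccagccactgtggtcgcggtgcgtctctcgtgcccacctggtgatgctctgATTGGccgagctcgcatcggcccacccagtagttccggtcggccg
Cyp51: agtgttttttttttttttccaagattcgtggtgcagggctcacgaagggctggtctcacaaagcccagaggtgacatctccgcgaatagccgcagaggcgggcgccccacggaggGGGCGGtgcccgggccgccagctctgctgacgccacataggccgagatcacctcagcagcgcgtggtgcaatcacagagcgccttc
In the full windows, the NF-Y box was found in 6 of 6 members, against 41.1% of 27025 genes with windows of the same length. The Sp1 box was found in 5 of 6 members, against 38.2% of genes. The SREBP element consensus was found in 1 of 6, Hmgcs1, where it starts 137 bases before the transcription start, and in 1.44% of genes. The E-box CACGTG, a motif of clock factors, was found in 1 of 6, Dhcr7, and in 8.09% of genes. Pmvk and Dhcr7 have more than 1 window, and for every gene a match in any of its windows was counted. Upstream of the gene's annotated start, Idi1, Cyp51 and Dhcr7 had no NF-Y box and Idi1 had no Sp1 box. The matches counted for them lie past that start. These matches describe letters and not bound sites.

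The first comparison asked how the members follow the time of day. Fdps, Pmvk, Sqle and Lss passed the test of a 24-h rhythm. Fdps and Pmvk peaked near ZT0, while Sqle and Lss peaked in the second part of the night. The other 5 members, Hmgcs1, Idi1, Fdft1, Cyp51 and Dhcr7, did not pass. The test was edgeR's quasi-likelihood F-test of a 24-h cosine over all 10 libraries, with Benjamini-Hochberg adjustment over 8908 genes and a threshold of 0.05. It called 4 of 9 members, where 5.14% of all genes tested were called. The median amplitude (the log2 distance from mean to peak) was 0.53 over the members and 0.25 over all genes tested.

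**Figure D1:**
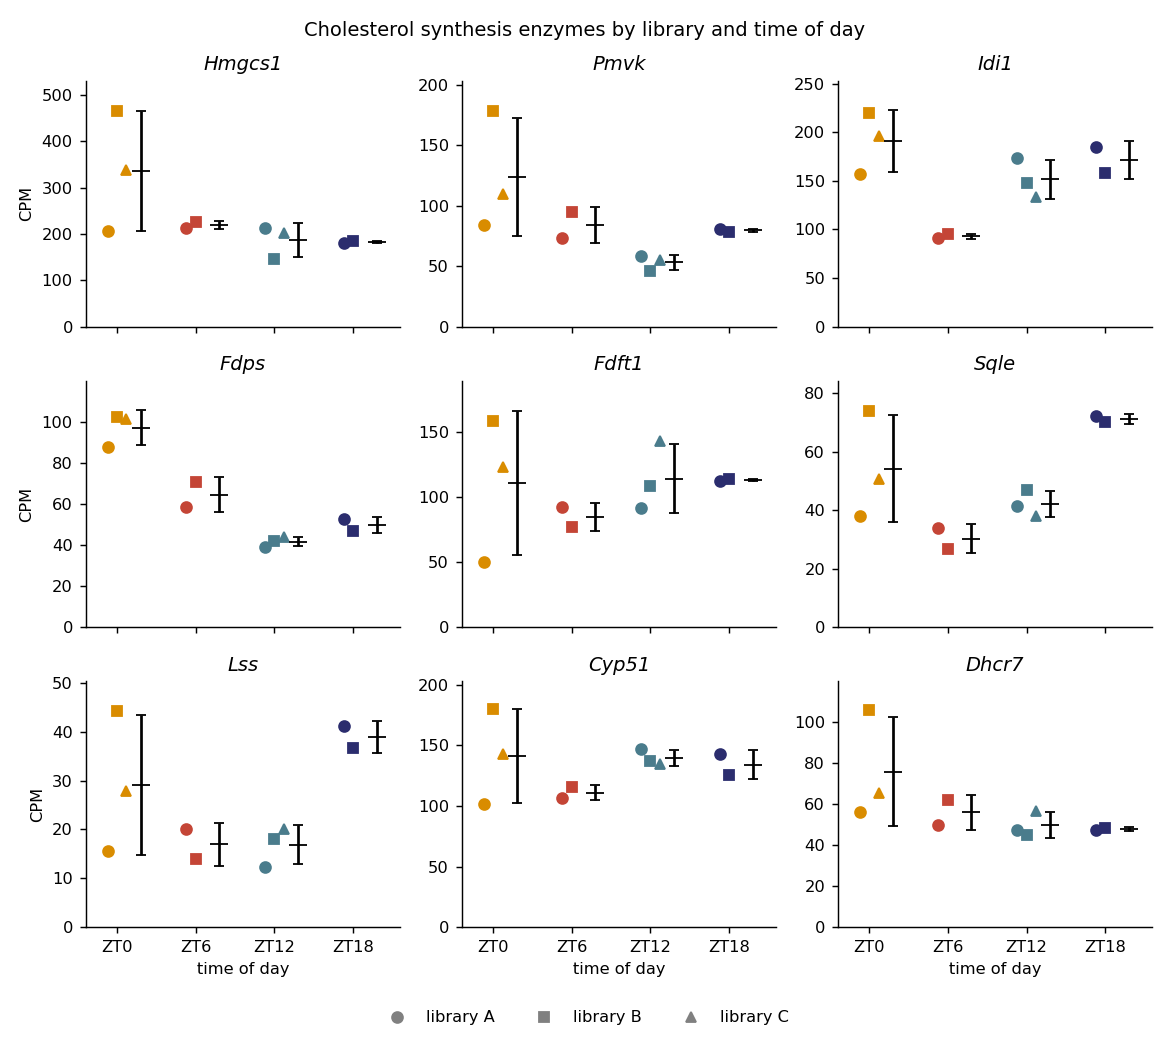
CPM (linear axis from 0) of the 9 members in each library at ZT0, ZT6, ZT12 and ZT18; symbols are libraries A, B and C, and black bars are the mean ± SD of a time. Fdps has a mean of 97.3 CPM at ZT0 and 41.6 at ZT12 with no overlap, Sqle and Lss are high at ZT18, and ZT0A lies below ZT0B in every panel.

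The early steps are represented by Hmgcs1, Pmvk and Idi1. Hmgcs1 makes HMG-CoA, the precursor of mevalonate. Its level was 206.5, 464.6 and 339.2 CPM in ZT0 A, B and C, 212.9 and 225.2 at ZT6, 212.4, 145.3 and 203.3 at ZT12, and 181.4 and 184.3 at ZT18. In CPM, ZT0B and ZT0C were above every other library, but ZT0A lay among the libraries of the other times. The test also scaled libraries by edgeR's TMM factors, 0.89 for ZT0A and 0.98 for ZT6B, the highest library of the other times. With those factors ZT0A lay just above ZT6B. The fitted amplitude was 0.50 with a peak at 0.71 h, and the adjusted p was 0.085 (edgeR).

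Pmvk encodes phosphomevalonate kinase, a step between mevalonate and the isoprene unit. Its level was 83.8, 177.9 and 109.9 CPM at ZT0, 73.5 and 94.7 at ZT6, 58.4, 45.9 and 55.2 at ZT12, and 80.5 and 78.7 at ZT18. The 3 ZT12 libraries were below the other 7. Every ZT0 library was above both ZT18 libraries, and ZT6 overlapped both of these times. The amplitude was 0.68 with a peak at 0.020 h, a 2.57-fold range from trough to peak, with adjusted p = 0.017 (edgeR). The call was lost without ZT0B (adjusted p = 0.055) and without ZT12B (adjusted p = 0.058).

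Idi1 interconverts both forms of the isoprene unit. Its level was 156.6, 219.8 and 196.5 CPM at ZT0, 91.2 and 95.0 at ZT6, 173.2, 147.4 and 133.5 at ZT12, and 184.8 and 157.6 at ZT18. Both ZT6 libraries were below the other 8, and the other times overlapped. The rhythm had an amplitude of 0.53, a peak at 19.8 h and an adjusted p of 0.11 (edgeR). The fit with the index column as a block left out both ZT18 libraries, so it rests on ZT0, ZT6 and ZT12 alone. Idi1 passed in it, with an amplitude of 1.02 and an adjusted p of 0.018 (edgeR). Its fitted peak was then at 18.9 h, a time with no library left, so this amplitude is an extrapolation. Without both ZT18 libraries and with no block the amplitude was 0.91 and the adjusted p 0.062 (edgeR).

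The middle steps are represented by Fdps and Fdft1. Fdps encodes farnesyl diphosphate synthase, whose product also feeds protein prenylation and other branches. Its level was 87.6, 102.6 and 101.6 CPM at ZT0, 58.5 and 70.7 at ZT6, 39.2, 42.0 and 43.7 at ZT12, and 52.5 and 46.9 at ZT18. The order was ZT0 above ZT6 above ZT18 above ZT12, and no neighbouring times in that order overlapped. The means were 97.3 ± 8.37 (SD, n = 3), 64.6 ± 8.62 (n = 2), 49.7 ± 3.97 (n = 2) and 41.6 ± 2.27 CPM (n = 3). The amplitude was 0.70 with a peak at 0.83 h, and the adjusted p was 0.0018 (edgeR). It stayed under the threshold when any 1 library was left out, with adjusted p from 0.0017 to 0.0064.

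Fdft1, squalene synthase, makes the first step that is committed to sterols. Its level was 49.9, 158.9 and 123.2 CPM at ZT0, 92.6 and 77.3 at ZT6, 91.4, 108.3 and 143.1 at ZT12, and 112.5 and 113.7 at ZT18. ZT0A and ZT0B were the lowest and the highest of all 10 libraries, so all neighbouring times overlapped. The adjusted p of the rhythm was 0.69 (edgeR). Fdft1 overlaps Ctsb on the opposite strand, and Cyp51 likewise overlaps Akap9. The sources used here do not say whether counting used strand, so whether reads of these pairs were kept apart is not known. Fdps shares its strand with the overlapping entries Gm22935 and Gm43738, and Hmgcs1, Idi1 and Lss overlap the unnamed opposite-strand genes Gm48342, Gm48574 and 4930483K19Rik.

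The late steps are represented by Sqle, Lss, Cyp51 and Dhcr7. Sqle encodes squalene epoxidase, a rate-limiting enzyme downstream of mevalonate. Its level was 38.0, 74.0 and 50.5 CPM at ZT0, 33.7 and 26.7 at ZT6, 41.2, 46.9 and 38.2 at ZT12, and 72.3 and 70.1 at ZT18. The ZT6 libraries were the lowest of all, and among the others only ZT0B reached the ZT18 level. The amplitude was 0.70 with a peak at 19.4 h and an adjusted p of 0.024 (edgeR). It lost the call without any one of ZT6A, ZT6B, ZT18A or ZT18B, with adjusted p of 0.066, 0.094, 0.083 and 0.076. Without both ZT18 libraries the adjusted p was 0.21 (edgeR). The cosine then passes through the means of ZT0, ZT6 and ZT12. Its amplitude of 0.72 is an extrapolation to a peak at 19.3 h, where no library was left.

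Lss, lanosterol synthase, closes the ring. Its level was 15.5, 44.1 and 27.9 CPM at ZT0, 20.1 and 13.9 at ZT6, 12.4, 18.1 and 20.1 at ZT12, and 41.2 and 36.6 at ZT18. Both ZT18 libraries were above all but ZT0B. The amplitude was 0.77 with a peak at 20.3 h, and the adjusted p was 0.049 (edgeR). That call was lost in 8 of the 10 fits that left out 1 library and held only without ZT0A and without ZT0C, with adjusted p from 0.010 to 0.15. It was also lost with scaling on library size alone (adjusted p = 0.090), with a filter at a mean of 20 CPM (0.053), without the 5% of cells with the most UMIs (0.067) and without both ZT18 libraries (0.25). An F-test between the 4 times, with no cosine, called Pmvk, Idi1, Fdps and Sqle, and not Lss (edgeR).

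Cyp51 removes a methyl group from lanosterol, and Dhcr7 makes cholesterol in the last step of one branch. Cyp51 was 101.8, 179.8 and 142.8 CPM at ZT0, 106.7 and 115.5 at ZT6, 147.1, 137.4 and 135.0 at ZT12, and 142.7 and 125.8 at ZT18. Dhcr7 was 56.0, 105.7 and 65.5 CPM at ZT0, 50.0 and 61.8 at ZT6, 47.4, 44.8 and 56.7 at ZT12, and 47.2 and 48.5 at ZT18. The ZT6 libraries of Cyp51 were below every library but ZT0A, and for Dhcr7 all neighbouring times overlapped. Neither passed the rhythm test, with amplitudes of 0.19 and 0.39 and adjusted p of 0.63 and 0.14 (edgeR).

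**Figure D2:**
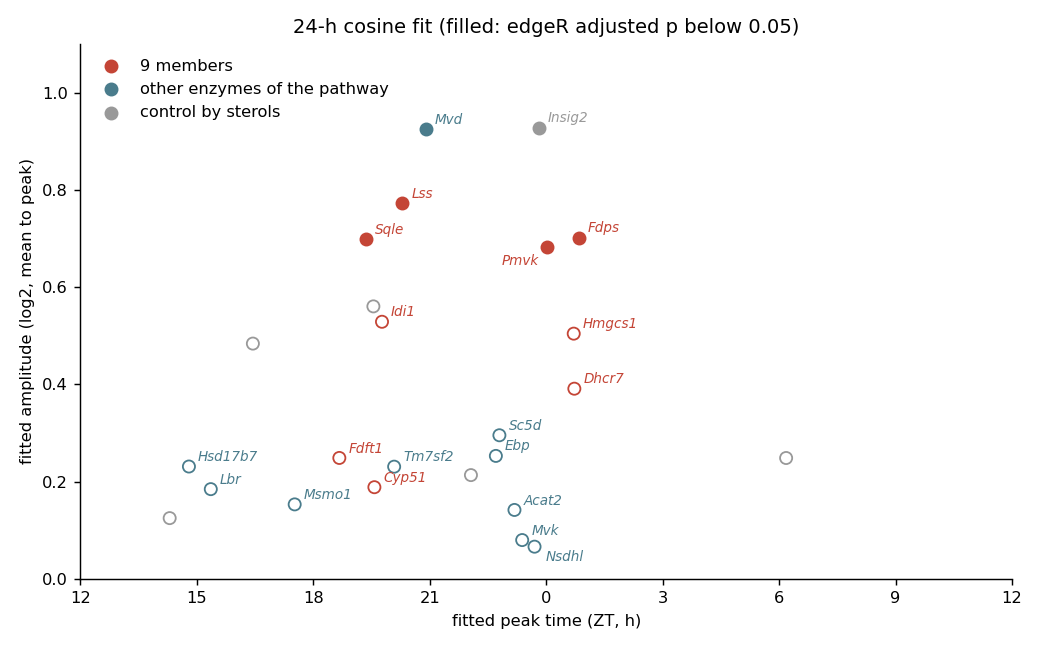
Fitted amplitude (log2, mean to peak) against fitted peak time (ZT in hours, axis from ZT12 to ZT12) for the members, the other enzymes and the genes of sterol control; filled points passed edgeR's test at 0.05. Sqle and Lss sit at 19.4 and 20.3 h and Fdps and Pmvk near 0 h.

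Of 10 other enzymes of the pathway, 1 passed the rhythm test, Mvd, which decarboxylates mevalonate diphosphate. Its amplitude was 0.92 with a peak at 20.9 h and an adjusted p of 0.029 (edgeR). The call was lost in 6 of the 10 fits without 1 library (those without ZT6B, ZT12A, ZT12B, ZT12C, ZT18A or ZT18B), with adjusted p up to 0.079 over the 10 fits, and without both ZT18 libraries (0.11). The median amplitude of the other enzymes was 0.21. Of 6 genes of sterol control, 1 passed, Insig2, which holds the SCAP and SREBP complex in the endoplasmic reticulum. Insig2 had an amplitude of 0.93, a peak at 23.8 h and an adjusted p of 0.0018 (edgeR).

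Opposite times were then compared in a fit with 1 mean per time. Fdps and Pmvk fell from ZT0 to ZT12, and none of the 9 members rose by the test. Fdps changed by -1.36 ± 0.17 (log2, SE; adjusted p = 5.9e-04, edgeR) and Pmvk by -1.37 ± 0.25 (adjusted p = 0.0078). These 2 of 9 members compare with 1.70% of all genes called lower and 1.74% called higher at ZT12. Hmgcs1 changed by -0.99 ± 0.25, with adjusted p = 0.0502 (edgeR), and passed in 6 of 10 other settings with all libraries or without both of ZT18. The same letter at ZT0 and ZT12 goes with the same index column. With the letter as a block Hmgcs1 changed by -0.96 with adjusted p = 0.036 (edgeR), past the threshold. That block spans all 10 libraries, so it also matches the letters of ZT6 and ZT18, where A and B share an index column. The fit with the index column as the block left out both ZT18 libraries. In that fit Hmgcs1 did not pass (adjusted p = 0.051), while Lss did, with a change of -0.94 (adjusted p = 0.029, edgeR). Over all genes the calls went from 306 to 504 with the letter as the block and to 588 with the index column. The remaining 6 members gave values from -0.90 (Lss, adjusted p = 0.16) to -0.08 (Fdft1). The median was -0.76 over the members and -0.0008 over all genes tested. Scaling on library size alone moved the median of all genes by 0.14.

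Within each index column the 3 pairs of libraries differed. Fdps gave ZT12 minus ZT0 of -1.14, -1.27 and -1.20 on the log2(CPM + 1) scale in pairs A, B and C. Pmvk gave -0.51, -1.93 and -0.98. Hmgcs1 gave 0.04, -1.67 and -0.74, so on this scale its pair A did not share the direction of the others. These values leave out the TMM factors of the test, 0.89 for ZT0A and 1.02 for ZT12A. With those factors Hmgcs1 was lower in ZT12A than in ZT0A. Without ZT0A, Hmgcs1 (-1.21, adjusted p = 0.0088) and Lss (-1.16, adjusted p = 0.024) also passed in edgeR's test. Fdft1 gave 0.86, -0.55 and 0.21, with no common direction.

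Sqle and Idi1 were higher at ZT18 than at ZT6. Sqle differed by 1.31 ± 0.29 (log2, SE; adjusted p = 0.023, edgeR) and Idi1 by 0.95 ± 0.24 (adjusted p = 0.045). These 2 of 9 members compare with 2.35% of all genes called higher and 1.45% called lower at ZT18. Lss differed by 1.25 ± 0.37 with adjusted p = 0.080, and passed with DESeq2 and with no filter on low counts. Pmvk, Hmgcs1, Dhcr7 and Fdps had values from -0.30 to -0.01, Cyp51 0.35 and Fdft1 0.49, and none of them passed. In edgeR 3 of 9 members had an unadjusted p under 0.05, as had 1744 of all 8908 genes tested. With so few libraries a time, a member that did not pass is not shown to be unchanged. Fdps and Pmvk therefore passed between ZT0 and ZT12 and not between ZT6 and ZT18, and Sqle and Idi1 the reverse; whether the members differ in timing was not tested. Without any one of the 4 libraries at ZT6 or ZT18, edgeR called 0 members, while 3 had an unadjusted p under 0.05 in each of these fits. The calls over all genes fell as well, from 338 to 50 and 60 without ZT6A and ZT6B, and to 80 and 66 without ZT18A and ZT18B. Idi1 also lost the call with scaling on library size alone (adjusted p = 0.070). Without ZT18B, the library rich in haemoglobin RNA, Sqle still differed by 1.32 (adjusted p = 0.15) and Idi1 by 1.05 (adjusted p = 0.18). The lone library left at a time was assumed to vary like the other groups. Among the other genes listed, 0 of 10 enzymes passed either contrast in edgeR. DESeq2 called 1 for ZT12 against ZT0 and 0 for ZT18 against ZT6. At an unadjusted p under 0.05 in edgeR there were 3 and 1 of 10, against 1385 and 1744 of all 8908 genes tested. Of the 6 genes of sterol control, Insig2 fell from ZT0 to ZT12, with a change of -1.85 ± 0.24 (log2, SE; adjusted p = 6.8e-04, edgeR).

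The lobule runs from the pericentral zone at the outflow vein to the periportal zone, where blood from the gut and the hepatic artery enters. Cells of each library were ordered by 8 periportal and 8 pericentral landmark genes, none of them a member. The test compared both outer parts of 3 equal parts of that order. Hmgcs1, Fdps and Fdft1 were higher in the pericentral zone, and Sqle and Dhcr7 in the periportal zone. Pmvk, Idi1, Lss and Cyp51 did not pass the test in either direction. Thus 5 of 9 members were called, against 24.8% of 8923 genes tested. By direction they were 3 pericentral and 2 periportal, where all genes tested gave 1142 and 1068. The median zone difference was -0.04 over the members and -0.01 over all genes tested. The test was edgeR's quasi-likelihood test on UMIs summed per zone, with the library as a block. The mitochondrial share of UMIs was higher in the periportal part in 10 of 10 libraries (12.2% to 23.2% pericentrally, 13.8% to 25.7% periportally), and its part in the zone differences was not tested. In cells of at least 3000 UMIs the same 5 members passed.

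Hmgcs1 had 308.1 ± 116.4 CPM pericentrally and 183.8 ± 82.8 periportally (SD, n = 10). The difference per library in log2(CPM + 1), with the pericentral value subtracted, had a lowest value of -1.21, a median of -0.63 and a highest of -0.32. All 10 libraries had the same direction, and the fitted difference was -0.65 ± 0.08 (SE; adjusted p = 2.2e-08, edgeR). Across 8 equal layers its mean level went from 320.4 CPM in the most pericentral layer to 181.3 in the most periportal one.

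Fdps had 74.4 ± 25.8 CPM pericentrally and 53.7 ± 23.4 periportally, with library differences from -0.97 to -0.07 and a median of -0.54. Fdft1 had 122.2 ± 38.2 and 89.8 ± 28.6 CPM, with library differences from -0.75 to -0.08 and a median of -0.41. Both were higher pericentrally in 10 of 10 libraries in CPM, although the ranges of CPM of the zones overlapped between libraries. Scaling on library size alone, as in CPM, moved the median zone difference of all genes by -0.10. The smallest library differences of both genes were within that shift, and whether 10 of 10 holds with TMM scaling was not tested. The fitted differences were -0.38 ± 0.09 for Fdps (adjusted p = 0.0012) and -0.32 ± 0.08 for Fdft1 (adjusted p = 0.0016, edgeR).

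Sqle ran the other way, with 34.4 ± 14.5 CPM pericentrally and 60.3 ± 19.4 periportally. Its library differences had a lowest value of 0.27, a median of 0.73 and a highest of 1.64, so it was higher periportally in 10 of 10 libraries. The fitted difference was 0.90 ± 0.11 (SE; adjusted p = 4.4e-08, edgeR). Over the 8 layers its mean went from 29.2 CPM in layer 1 to 67.1 in layer 8, a ratio of 2.30, the widest of the members.

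Dhcr7 had 48.2 ± 15.0 CPM pericentrally and 66.3 ± 22.8 periportally, and the fitted difference was 0.54 ± 0.10 (SE; adjusted p = 7.2e-05, edgeR). It was higher periportally in 9 of 10 libraries. ZT18A was the exception, with a difference of -0.63, and the mean difference was -0.26 ± 0.52 (SD, n = 2) at ZT18 against 0.77 ± 0.41 (n = 3) at ZT12. Without both ZT18 libraries, an alternative chosen after seeing the data, the same 5 members passed in the zone test.

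**Figure D3:**
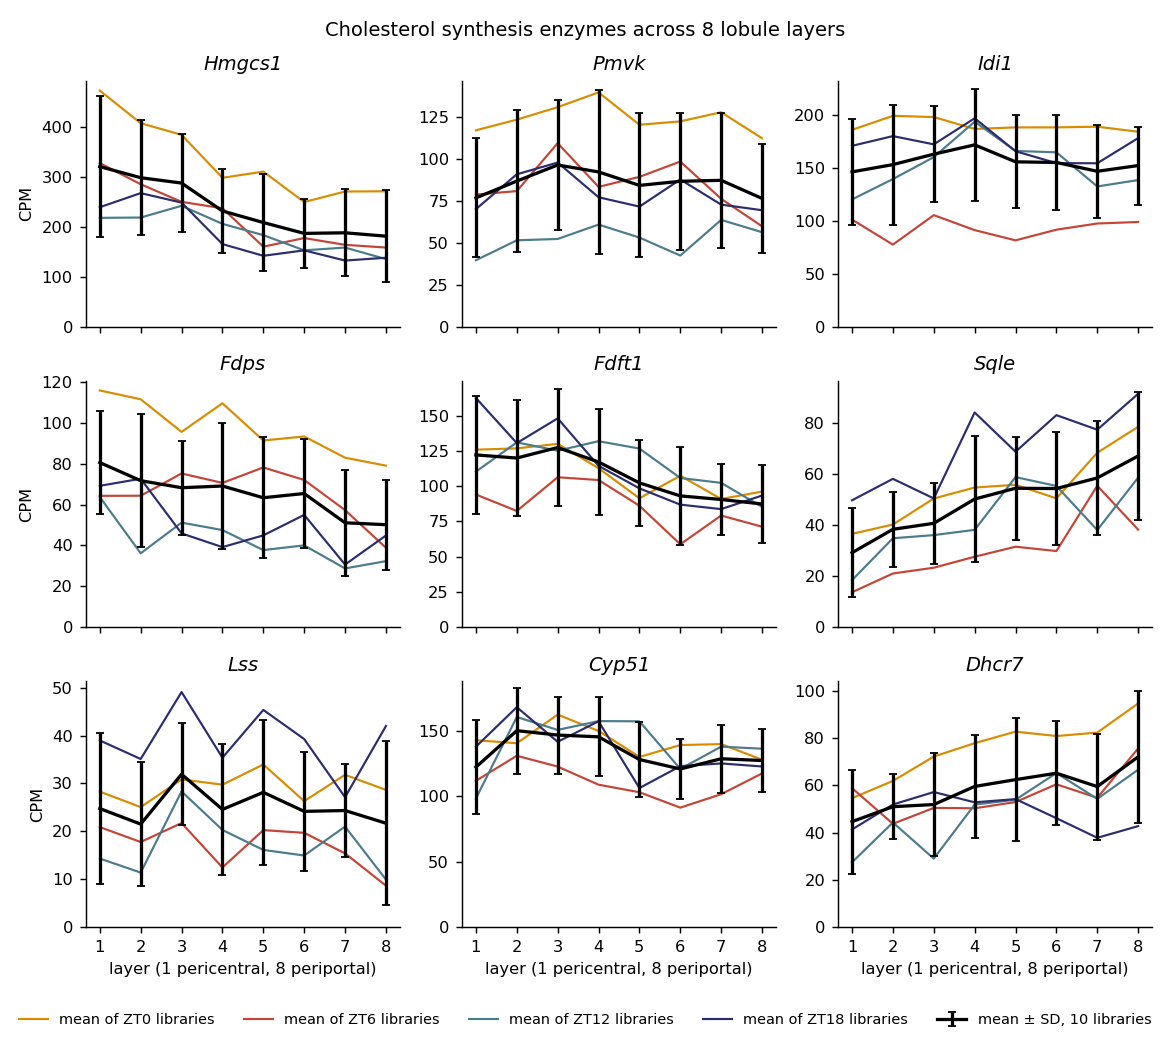
Mean CPM (linear axis from 0) of the 9 members over 8 layers from pericentral (1) to periportal (8); the black line is the mean ± SD of 10 libraries and the coloured lines are the means of each time. Hmgcs1 falls from 320.4 to 181.3 CPM, Sqle rises from 29.2 to 67.1 CPM, and Pmvk, Idi1, Lss and Cyp51 passed no zone test.

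Fdft1 and Sqle, which carry out consecutive steps from farnesyl diphosphate to squalene epoxide, had opposite zone differences. The pair was chosen after its values were seen. Sqle's difference exceeded that of Fdft1 in 10 of 10 libraries, by a mean of 1.27 ± 0.55 (SD, n = 10, log2), with a lowest value of 0.50 and a highest of 2.12. No test is given, since the zone differences of both genes were known.

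For the members without a zone call, the fitted differences were 0.03 ± 0.08 for Pmvk, 0.06 ± 0.07 for Idi1, -0.05 ± 0.12 for Lss and -0.04 ± 0.07 for Cyp51 (log2, SE). The layer with the highest mean was 3 for Pmvk and Lss, 4 for Idi1 and 2 for Cyp51. The ratio of highest to lowest layer was between 1.17 for Idi1 and 1.48 for Lss. For Pmvk and Idi1 the gap between the highest and the lowest layer was smaller than the SD over libraries in any layer. That SD includes differences between times and libraries, so it does not measure the spread of the gap within a library.

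Of the other enzymes, 4 of 10 were called in the zone test and all 4 were pericentral. They were Msmo1 (-0.43), a sterol methyl oxidase, Hsd17b7 (-0.35) and Nsdhl (-0.33), which also act on the sterol ring, and Acat2 (-0.30), which makes acetoacetyl-CoA. The adjusted p was 2.1e-05 for Msmo1, 0.0096 for Hsd17b7, 0.012 for Acat2 and 0.021 for Nsdhl (edgeR). Leaving out 1 library ended the call for Acat2 and Hsd17b7 (without ZT0C, adjusted p up to 0.055 and 0.059) and for Nsdhl (without ZT12B or ZT18A, up to 0.088). Acat2 also lost it in cells of at least 3000 UMIs and with the outer of 5 parts (up to 0.11), and Nsdhl with both of these, with DESeq2 and without both ZT18 libraries (up to 0.57). Of the 6 genes of sterol control, 1 was called, Srebf1 (0.46, adjusted p = 5.1e-05, edgeR), which encodes a regulator of fatty acid synthesis and was periportal.

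No member passed a test of whether its rhythm differs between the zones. In this test of zone by cosine and sine, edgeR called 0 of 9 members and DESeq2 called 0, and 0 had an unadjusted p under 0.05 in edgeR. Over all genes 4 of 8923 were called, or 0.0448%, and 550 had an unadjusted p under 0.05 in edgeR. The lowest adjusted p among the members was 0.83.

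The next question was whether the members vary together between libraries of the same time. At ZT0 they did so in one order. All 9 members were lowest in ZT0A and highest in ZT0B, with ZT0C between, an order that 24.6% of the other 8899 genes also had. On the scale of log2(CPM + 1) minus the mean of the time, the members had a median of -0.45 in ZT0A, 0.53 in ZT0B and 0.05 in ZT0C, where all genes had -0.13, 0.01 and 0.10. The widest gap was that of Fdft1, at -0.98 in ZT0A and 0.67 in ZT0B, and the narrowest that of Fdps, at -0.15 and 0.08. Of the 10 other enzymes, 7 had the same order. After TMM scaling, 9 of 9 members still had it, against 21.5% of other genes.

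**Figure D4:**
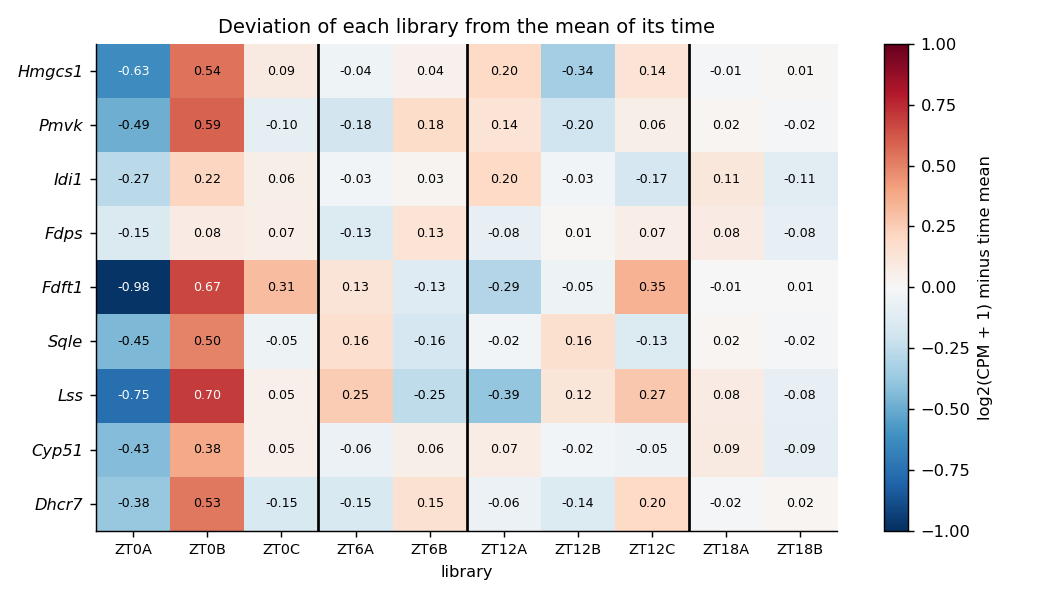
Deviation of each of the 10 libraries from the mean of its time, in log2(CPM + 1), for the 9 members; red is above and blue below, and black lines part the times. ZT0A is negative and ZT0B positive in all 9 rows, while the libraries of the other times have mixed signs.

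At ZT12 no such order was seen. The members fell into 5 of the possible orders of the 3 libraries, with at most 3 members in one order. At ZT6, 3 members were higher in A and 6 in B, with deviations between -0.25 and 0.25. At ZT18 the deviations were between -0.11 and 0.11. The sum of the 9 members was 795.7, 1527.4 and 1157.1 CPM at ZT0 and between 736.1 and 915.1 CPM in the other 7 libraries. ZT0A, ZT0B and ZT0C had cholangiocyte marker sums of 32.5, 17.4 and 17.7 CPM, whose part in this order was not tested.

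Covariation was then described from cell to cell within libraries. In each library, cells of the same layer and of similar depth were ranked by the share of their UMIs that came from the other 8 members, and split into 3 equal parts. Each member was compared between the top and the bottom part. Hmgcs1, Idi1, Fdft1 and Cyp51 were higher in the top part in 10 of 10 libraries. These 4 of 9 members compare with 0.910% of the other 8899 genes, each set against the share of all 9 members, and with 1.41% of the 4332 genes that reached a mean of 20 CPM. The same 4 members had the most UMIs over all cells, from 4713 for Fdft1 to 10962 for Hmgcs1, and Pmvk came next with 4006. The count of libraries therefore does not rank the members by covariation, and the part of depth in it was not tested. No p is given, since cells of 1 library are not replicates.

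Idi1 had 189.3 ± 54.3 CPM in the top part and 126.8 ± 36.9 in the bottom part (SD, n = 10), a mean log2 ratio of 0.57 ± 0.27. Hmgcs1 had 285.3 ± 114.1 and 203.2 ± 80.5 CPM (0.49 ± 0.27). Cyp51 had 157.9 ± 30.2 and 113.4 ± 19.3 CPM (0.47 ± 0.15). For these genes the lowest library ratio was 0.26, 0.16 and 0.29. Fdft1 had a mean log2 ratio of 0.40 ± 0.18, with a lowest value of 0.09.

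Sqle had the highest mean ratio, 0.66 ± 0.45, and was above 0 in 9 of 10 libraries, from -0.03 in ZT12C to 1.70 in ZT12A. Pmvk was above 0 in 9 libraries (0.33 ± 0.24), and Lss (0.34 ± 0.47), Dhcr7 (0.27 ± 0.22) and Fdps (0.21 ± 0.42) in 8. Fdps and Lss had the most varied ratios among members above 0 in 8 libraries, from -0.41 to 1.13 and from -0.64 to 0.88. The median over the members was 0.40, against 0.05 over all other genes. Counts were low: the 9 members together gave 41568 UMIs over 18378 cells, so single cells carry little information.

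**Figure D5:**
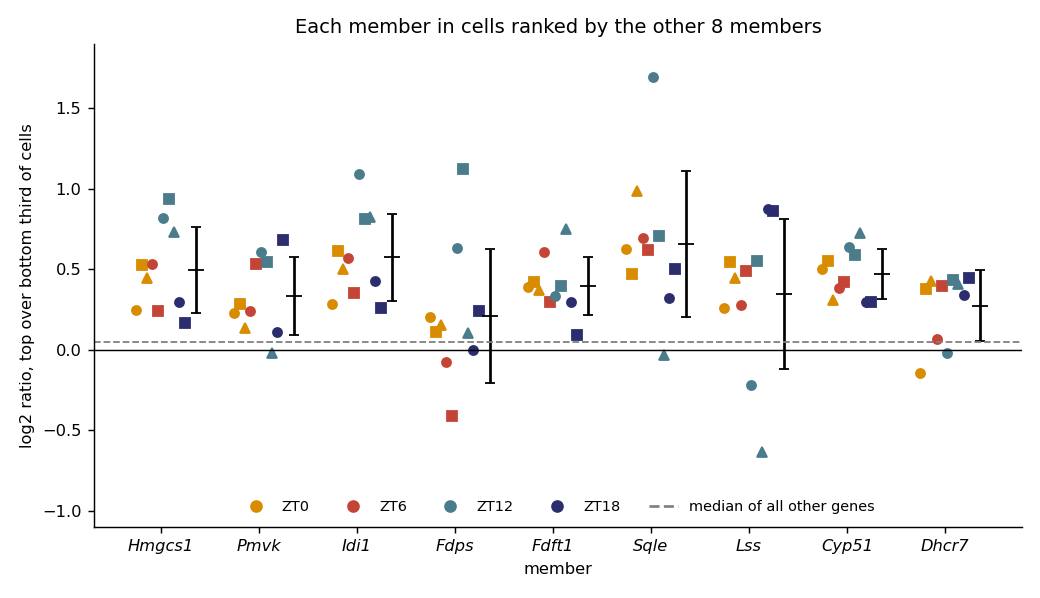
Log2 ratio of CPM between the top and bottom of 3 equal parts of the cells, ranked by the other 8 members within layer and depth, for each member and library; colours are times, symbols are libraries A (circle), B (square) and C (triangle), and black bars are the mean ± SD of 10 libraries. Hmgcs1, Idi1, Fdft1 and Cyp51 lie above 0 in all 10 libraries, and the dashed line is the median of all other genes at 0.05.

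With every cell thinned to 1000 UMIs, 3 of 9 members (Hmgcs1, Idi1 and Fdft1) were above 0 in 10 of 10 libraries, against 0.191% of other genes. Cyp51 was then above 0 in 9 libraries with a mean of 0.29, and Dhcr7 in 4 with a mean of -0.01. Among the other enzymes, 3 of 10 were above 0 in 10 libraries, namely Msmo1 (0.44), Nsdhl (0.43) and Sc5d (0.22). Of the 6 genes of sterol control none was (0 of 6), and Insig2 had a mean of -0.0034 and was above 0 in 4 libraries. After thinning these counts were 1 of 10 and 0 of 6.

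Among the other 4332 genes that reached a mean of 20 CPM, those with the highest mean ratio across cells included Spp1 (0.83), Rdh11 (0.51) and Plpp2 (0.44), each over 10 libraries. By likeness over the 10 libraries to the members' mean z-score, the first included Rdh11, Pter, Paqr9 and Il11ra1, with correlations of 0.89 to 0.85 as a description. Over the 80 layer sums, centred per library, the first 5 were Enho, Scd1, Ccnd1, Rps25 and Rpl17, with correlations of 0.59 to 0.52. These points share libraries and depth. Over the same 80 sums, Idi1 (0.54) and Cyp51 (0.49) followed the mean of the other 8 members most, and Sqle (-0.06) and Fdps (-0.0034) least.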

How the data were processed

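Per the submitters' processing notes, Cell Ranger was used and the builds hg19 and mm10 are named, without roles; the counter's version and its use of strand are not given in the sources used here. The deposited values are raw UMI counts per gene and cell, as the whole-number values and the labels' protocols show. Groups came from the sample titles. Counts were summed per library, and per zone (the outer of 3 parts of the landmark order) or layer, and tested with edgeR 4.0.16 in R 4.3.3 (glmQLFit, glmQLFTest, TMM, mean of at least 3 CPM, Benjamini-Hochberg adjustment over all genes tested, threshold 0.05). DESeq2 1.42.0, other scalings and filters, blocks and left-out libraries were alternatives. Log values used a pseudocount of 1 CPM, and cell ratios one of 0.5 UMIs. Deviations from time means correlated between ZT0 and ZT12 libraries of the same letter in all 3 pairs. In genes of at least 20 CPM r was from 0.28 to 0.63, so letters pair these groups. Other groups have 2 shared letters and were not taken as paired, except in the alternative with the letter as a block, which spans all times. Cell names hold no barcodes, so shared barcodes were not counted. No doublet caller was run, and removing the 5% of cells of highest depth was an alternative. Positions and overlaps came from GENCODE (GRCm38) and promoters from RefSeq (GRCm38.p6). Tests were checked on simulated data. Fewer cells of a type and less RNA per cell cannot be told apart in summed counts. Members and lists were chosen with earlier results of these data known. All members are named throughout, other listed genes where they passed the rhythm or zone test, and genes among the 5 most like the members by each measure; the pair of Fdft1 and Sqle was chosen after its values were seen. Some genes that these rules would name are not reported here.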

Additional observations from a re-analysis of the deposited data

Results flagged for a closer look

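In 2 cases 1 library lay far from the other 9 in its zone difference (log2(CPM + 1), periportal minus pericentral), by the gap to its nearest neighbour over the range of all 10. For Pmvk this was ZT12A, at 0.78, where the other 9 were between -0.44 and 0.12. For Cyp51 it was ZT18A, at -0.66, where the other 9 were between -0.24 and 0.15. Chance alone marks about 1 in 20 such groups, and 18 were looked at. Neither gene passed the zone test with or without that library.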

How the results depend on the processing

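Every alternative run kept the 5 zone calls of Hmgcs1, Fdps, Fdft1, Sqle and Dhcr7 with their directions, and 0 calls of zone-dependent rhythm. The count of members with a 24-h rhythm was 4, 2 to 5 when 1 library was left out, and 2 without both ZT18 libraries. The count for ZT12 against ZT0 was 2, and 2 to 4 when 1 library was left out. Hmgcs1 passed this contrast in 6 of 10 other settings, among them DESeq2, RLE scaling, no filter and at least 20 CPM. Its adjusted p over those 10 was from 0.0069 (DESeq2) to 0.10 (edgeR, library size alone). The count for ZT18 against ZT6 was 2, 0 to 3 when 1 library was left out, and 1 with scaling on library size alone. Covariation across cells gave 4 members, 3 with cells thinned to 1000 UMIs and 6 with depth strata alone. It gave 4 to 6 when 1 library was left out, a step that cannot lower a count of members above 0 in every library kept. With the letter as a replicate block the members called were 4 for the rhythm, 3 for ZT12 against ZT0 and 2 for ZT18 against ZT6, with 749, 504 and 730 calls over all genes against 458, 306 and 338 without it; beyond Hmgcs1 it changed no member's call. Over all genes the rhythm calls were 792 with DESeq2, 710 with no filter, 283 with a mean of at least 20 CPM and 231 without both ZT18 libraries. With no filter the calls were 469 for ZT12 against ZT0, 595 for ZT18 against ZT6 and 46 for zone-dependent rhythm. With at least 20 CPM they were 199 for ZT18 against ZT6. With the index column as a block, a fit without both ZT18 libraries, they were 588 for ZT12 against ZT0. DESeq2 also called Hmgcs1 and Idi1 rhythmic. Values that changed sign were all of members with no call in that test. For ZT12 against ZT0 they were Fdft1, at 0.046 with library size alone, 0.0003 with the index column as a block and -0.41 to 0.28 when 1 library was left out, and Cyp51, at -0.30 to 0.061 when 1 library was left out. For ZT18 against ZT6 they were Pmvk, at 0.0050 with DESeq2, 0.0054 with RLE scaling, 0.0047 with at least 20 CPM, 0.012 with the replicate block and -0.23 to 0.24 when 1 library was left out, and Dhcr7, at -0.35 to 0.063 when 1 library was left out. For the zones, Pmvk was -0.070 with library size alone and -0.0011 to 0.078 when 1 library was left out, and Idi1 was -0.041 with library size alone and -0.14 in cells of at least 3000 UMIs. Lss was 0.018 without the cells of highest depth, 0.10 in cells of at least 3000 UMIs, 0.0027 with the outer of 5 parts, 0.020 with the order in 2 parts, 0.14 with even-numbered landmarks and -0.10 to 0.042 when 1 library was left out. Cyp51 was 0.0049 without both ZT18 libraries, 0.065 with the outer of 5 parts, 0.017 with even-numbered landmarks and -0.075 to 0.021 when 1 library was left out. The cause of these changes was not tested. ZT12A and ZT12C were the shallowest libraries, and among the members Lss, with 1140 UMIs over all cells, had the fewest counts.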
